A study of Nothobranchius furzeri with 16 samples.

Results

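Tubulins, the motors that walk on microtubules, the proteins that bind free tubulin and the neurofilaments were followed in brains of Nothobranchius furzeri, the turquoise killifish, a fish with a lifespan of months, after proteasome inhibition. The set was chosen by gene symbol. It holds the rows of the deposited expression table for numbered alpha, beta and gamma tubulins (TUBA, TUBB and TUBG), kinesins (KIF) and stathmins (STMN). It also holds those for the tubulin-folding cofactors (TBCA to TBCE), the neurofilament subunits (NEFL, NEFM and NEFH) and alpha-internexin (INA). KIFC motors, which have no number directly after KIF, are not members. Of 26739 rows, 84 carried such a symbol, and 71 of these passed a minimum of 1 TPM, the length-corrected share of transcripts scaled to 1000000 per fish, in at least 8 fish, as did 18529 rows in all. The 13 rows below that minimum averaged at most 0.96 TPM over the 16 fish. TUBA1A and NEFH were named when the set was put together, with their direction of change already known.

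The study sequenced RNA of 16 individual brains. The 8 bortezomib fish received intraperitoneal bortezomib, a proteasome inhibitor, at 500 µM and 10 µl per g body weight, and the 8 DMSO fish the same volume of vehicle, 1% DMSO in a salt solution. All fish were adults of 12 to 14 weeks post hatch, came from a single hatch and were allocated at random, with both sexes in each group. Injections were given on days 0, 6, 12, 18 and 24 of 4 weeks, and brains were taken on the last day of treatment. The sources used here give no strain, no sex for a given fish and no library batch.

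Microtubules are hollow polymers of alpha and beta tubulin, and gamma tubulin in ring complexes starts new ones. New tubulin passes from chaperonins to the cofactors TBCA to TBCE, which assemble the dimer, while stathmins bind free dimers and keep them from polymerising. In neurons, kinesins carry vesicles and mitochondria along axonal microtubules, and neurofilaments, built from light, medium and heavy subunits and alpha-internexin, set axon calibre.

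Over all 18529 tested rows, 901 passed the test, or 4.86%, with 669 higher (3.61%) and 232 lower (1.25%) in bortezomib fish. Calls are from limma on log2(TPM + 1), with Benjamini-Hochberg adjusted p under 0.05 over all tested rows, and a log2 fold change on that scale understates the change of rows at a few TPM. In these terms 7 of the 71 members passed (9.86%), and 5 of 69 (7.25%) without TUBA1A and the scarce NEFH row, whose changes were known when the set was named. The share called depends on level, and 27 of the 71 averaged at least 50 TPM. Of all tested rows 12.3% passed at that level, 4.69% at 10 to 50 TPM and 2.15% under 10 TPM. The members' shares were 18.5%, 7.14% and 3.33%, with TUBA1A and the scarce NEFH row counted. TUBA1A, TUBA8L3, TBCA, STMN4 and 2 KIF5BA rows were higher in bortezomib fish (6 members, 8.45%), and a scarce NEFH row was lower (1 member, 1.41%). The 2 KIF5BA rows are neighbours and may be parts of 1 gene, so these shares may count 1 gene as 2 members. The other 64 did not pass, the smallest of their adjusted p-values being 0.0597. At an unadjusted p under 0.05, 16 members were higher and 4 lower in bortezomib fish (28.2% together), against 2635 and 1285 of all tested rows (14.2% and 6.94%, 21.2% together). The median log2 fold change was 0.03 both over the members and over all tested rows. It was positive in 57.7% of the members and in 56.6% of all tested rows.

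Library differences touch these results. Brains 6 and 7 of the bortezomib group and 5 and 6 of the DMSO group carried 2135 to 6089 TPM of summed pituitary hormone transcripts, against 9.99 to 21.2 TPM in the other 12 brains. Without these 4 fish, 1 member was higher, TUBA1A, and 1 lower, the scarce NEFH row, while the calls over all tested rows fell to 325 (1.75%). The members no longer called kept log2 fold changes of 0.27 (TBCA), 0.40 (STMN4), 0.34 (TUBA8L3), and 0.44 and 0.67 (KIF5BA rows) in the 12 fish. Over all 16 fish these were 0.27, 0.39, 0.34, and 0.37 and 0.57. Bortezomib replicate 8 was the lowest bortezomib fish in 33 of 71 members (46.5%) and in 44.2% of all tested rows. In whole-brain RNA, fewer cells of a type and less RNA per cell cannot be told apart. Summed markers of mature neurons ran from 4070 to 5140 TPM in bortezomib fish (median 4651), against 3162 to 4569 TPM in DMSO fish (median 4117). Of 24 tested neuronal marker rows 2 passed, both higher: SNAP25 (2 OF 2), by 0.58, and SYPB, by 0.37 on the log2 scale. At an unadjusted p under 0.05, 11 of the 24 were higher and 0 lower, and their median log2 fold change was 0.24, above the medians of the stathmins (0.17) and transport kinesins (0.09). Markers of myelinating oligodendrocytes summed to 6048 to 11240 TPM in bortezomib fish (median 8433) and 7977 to 14370 TPM in DMSO fish (median 10800), with 1 of 16 rows higher (MAG) and 1 lower (FA2H). Of these 16 rows 14 had a negative log2 fold change (median -0.15), with 1 higher and 6 lower at an unadjusted p under 0.05. The part of these marker shifts in the members' results was not tested.

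Of the 14 alpha-tubulin rows 9 were tested, and 2 rose (22.2%, against 3.61% of all tested rows), 1 of them TUBA1A, which was named for its rise. TUBA1A, the main alpha tubulin of developing and growing mammalian neurons, stood at 339, 400 and 553 TPM (lowest, median and highest of 8) in bortezomib fish, against 251, 264 and 325 TPM in DMSO fish. Every bortezomib fish lay above every DMSO fish, a pattern that 200 of all tested rows showed (1.08%) and no other member did. No member had every bortezomib fish below every DMSO fish, as 41 of all tested rows did (0.221%). The means were 409 ± 68.0 TPM in bortezomib fish and 274 ± 26.8 TPM in DMSO fish (SD, n = 8 each). The log2 fold change was 0.57 ± 0.09 (SE), with a limma adjusted p of 0.00158. Since TUBA1A was named with its rise known, its separation and p-value describe that rise and give it no independent support.

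Among the other alpha tubulins, change was smaller or in the other direction. The scarce TUBA8L3 row Nfu_g_1_023281 stood at 12.0, 15.9 and 17.3 TPM in bortezomib fish, against 9.12, 12.5 and 13.4 TPM in DMSO fish. All but 1 bortezomib fish were above the highest DMSO fish, and the log2 fold change was 0.34 ± 0.09 (limma adjusted p 0.0428). That call lies close to the threshold and was lost in 17 of 27 alternative settings. The abundant TUBA1C rows differed from each other in an exact permutation test described below (adjusted exact p 0.0425), a call lost when some single fish were left out. Row Nfu_g_1_002018 ran at 420, 517 and 584 TPM in bortezomib fish and 348, 404 and 503 TPM in DMSO fish (log2 fold change 0.26 ± 0.09, limma adjusted p 0.0991). Row Nfu_g_1_002019, the most abundant alpha tubulin, ran at 681, 764 and 902 TPM in bortezomib fish and 580, 755 and 860 TPM in DMSO fish (log2 fold change 0.02 ± 0.08). TUBA8L4 had medians of 323 TPM in bortezomib fish and 331 TPM in DMSO fish. The 9 tested rows had a median log2 fold change of -0.01, with 4 positive.

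The make-up of the alpha-tubulin pool is described here without a test, since TUBA1A was singled out for its rise. Summed alpha-tubulin transcripts came to 1881, 2112 and 2447 TPM in bortezomib fish and 1591, 1900 and 2067 TPM in DMSO fish. TUBA1A made up 16.02 to 22.61% of that sum in bortezomib fish (median 18.7%) and 12.3 to 16.5% in DMSO fish (median 14.5%). The groups met at their edges, where the lowest bortezomib fish fell inside the DMSO range. TUBA8L4 had median shares of 15.3% in bortezomib fish and 17.4% in DMSO fish, and TUBA1C row Nfu_g_1_002019 had 36.9% in bortezomib fish and 39.7% in DMSO fish. Shares within a sum are tied, so that a larger TUBA1A share lowers the others.

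**Figure D1:**
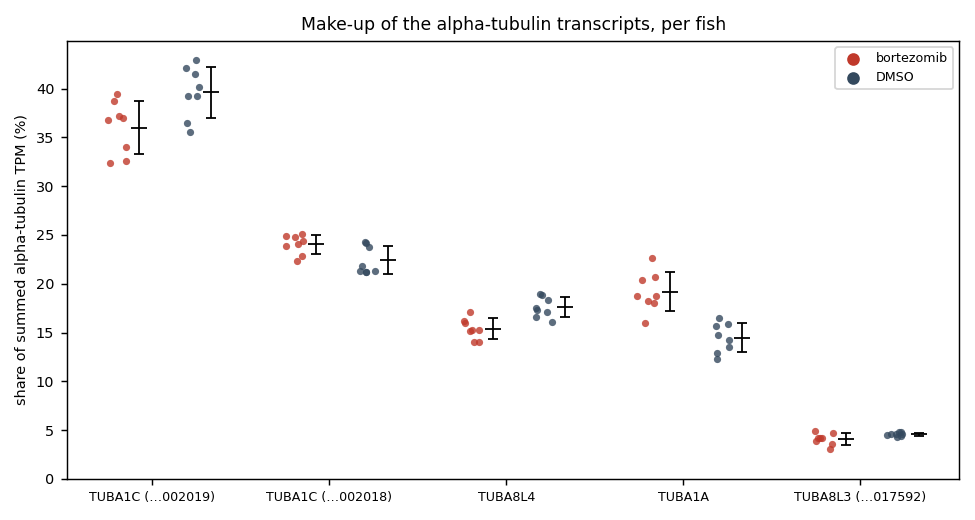
Share of each of the 5 most abundant alpha-tubulin rows in the summed alpha-tubulin TPM (%, vertical axis), 1 point per fish, with mean and SD bars (n = 8 each), bortezomib left of DMSO. TUBA1A had a median share of 18.7% in bortezomib fish and 14.5% in DMSO fish, while the TUBA1C row Nfu_g_1_002019 remained the largest row in both groups.

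Of 4 tested beta-tubulin rows none passed the limma test, and 1 had an unadjusted p under 0.05. TUBB5, the dominant beta tubulin in these brains, stood at 342, 404 and 523 TPM in bortezomib fish, against 275, 325 and 397 TPM in DMSO fish. All 8 bortezomib fish were above the DMSO median, though the groups overlapped (log2 fold change 0.29 ± 0.10, limma adjusted p 0.0997). TUBB5 supplied 78.8 to 87.2% of summed beta-tubulin TPM in bortezomib fish and 74.1 to 84.9% in DMSO fish. TUBB2B had medians of 76.7 TPM in bortezomib fish and 68.0 TPM in DMSO fish, with a log2 fold change of 0.005 ± 0.12. The scarce TUBB6 and TUBB1 had log2 fold changes of -0.21 and -0.38, and neither passed. TUBG1, the gamma tubulin of the nucleating ring, had medians of 39.8 TPM in bortezomib fish and 39.1 TPM in DMSO fish (log2 fold change 0.07 ± 0.09). Of 11 rows for other tubulins and the gamma-tubulin complex, none passed and none had an unadjusted p under 0.05.

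All 4 tested tubulin cofactors had positive log2 fold changes, as did 56.6% of all tested rows, and TBCA passed. TBCA, which holds beta tubulin during dimer assembly, stood at 206, 226 and 248 TPM in bortezomib fish, against 169, 189 and 221 TPM in DMSO fish. The lowest bortezomib fish was above all but 1 of the DMSO fish. The means were 227 ± 14.9 TPM in bortezomib fish and 189 ± 16.9 TPM in DMSO fish (SD, n = 8 each), and the log2 fold change was 0.27 ± 0.06 (limma adjusted p 0.0184). The TBCA call was held whichever single fish was left out and lost when values were rescaled between fish by median of ratios (0.0834), upper quartile (0.097) or quantiles (0.077), or when those 4 pituitary-rich brains were left out (0.0829), all limma adjusted p-values. TBCE, TBCB and TBCD had log2 fold changes of 0.24, 0.18 and 0.005, with wider errors of 0.16, 0.23 and 0.14 (SE).

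Upstream of the cofactors, 8 of 20 tested rows for tubulin folding and autoregulation were higher in bortezomib fish and none lower. Over all tested rows 3.61% were higher and 1.25% lower. The median log2 fold change was 0.21 in this list and 0.03 over all tested rows. The 8 were the chaperonin subunits CCT6A, CCT3 and CCT5, the prefoldin subunits PFDN2, PFDN4, PFDN5 and VBP1, and ARL2, a small GTPase that works with the cofactors. CCT5 lay close to the threshold (limma adjusted p 0.048). Chaperonin rows that did not pass had log2 fold changes of 0.17 (CCT8), 0.02 (TCP1), -0.10 (CCT7), and -0.07 and -0.04 (both CCT4 rows). CCT6A averaged 189 ± 15.9 TPM in bortezomib fish and 144 ± 17.7 TPM in DMSO fish, with a log2 fold change of 0.39 ± 0.08 (limma adjusted p 0.00718). PFDN2 averaged 117 ± 10.8 TPM in bortezomib fish and 80.5 ± 16.3 TPM in DMSO fish, with a log2 fold change of 0.56 ± 0.12 (limma adjusted p 0.0119). Chaperonin and prefoldin also fold actin and other proteins, so these rows are not specific to tubulin.

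The stathmins were among the most abundant members, and 1 of 6 tested rows passed (16.7%). All 6 averaged at least 50 TPM, a level at which 12.3% of all tested rows passed, so this count lies near that share. STMN4, a membrane-bound stathmin of neurons, stood at 631, 776 and 931 TPM in bortezomib fish, against 471, 604 and 680 TPM in DMSO fish. All 8 bortezomib fish were above the DMSO median, and 5 were above the highest DMSO fish. The means were 773 ± 110 TPM in bortezomib fish and 589 ± 70.0 TPM in DMSO fish (SD, n = 8 each), with a log2 fold change of 0.39 ± 0.09 (limma adjusted p 0.024). The call was lost without bortezomib replicate 6 (limma adjusted p 0.0552), under upper-quartile scaling (0.054) and with the 4 brains rich in pituitary transcripts left out (0.0732).

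STMN2A and STMN1B had the same sign without passing. STMN2A, a co-orthologue of the axon growth protein SCG10, stood at 598, 688 and 819 TPM in bortezomib fish and 401, 585 and 675 TPM in DMSO fish (log2 fold change 0.32 ± 0.10, limma adjusted p 0.073). STMN1B row Nfu_g_1_023499, the most abundant member, stood at 1328, 1483 and 1702 TPM in bortezomib fish and 1155, 1278 and 1522 TPM in DMSO fish (log2 fold change 0.20 ± 0.06, limma adjusted p 0.0752). STMN2B and STMN4L had log2 fold changes of 0.12 and 0.13, and STMN1A, at a median of 55.7 TPM in bortezomib fish and 59.7 TPM in DMSO fish, had -0.17. Summed stathmin transcripts came to 3599, 3943 and 4649 TPM in bortezomib fish and 2910, 3462 and 3715 TPM in DMSO fish. Among 22 rows for other genes of axon growth and regeneration 1 passed, against 4.86% of all tested rows. It was a row of JUN, an injury-response transcription factor. This row averaged 19.2 ± 3.62 TPM in bortezomib fish and 29.7 ± 4.39 TPM in DMSO fish (log2 fold change -0.61 ± 0.12, limma adjusted p 0.0103). A further row, JUN (2 OF 2), did not pass. Of the 22 rows 14 had a positive log2 fold change (median 0.03), with 3 higher and 2 lower at an unadjusted p under 0.05.

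**Figure D2:**
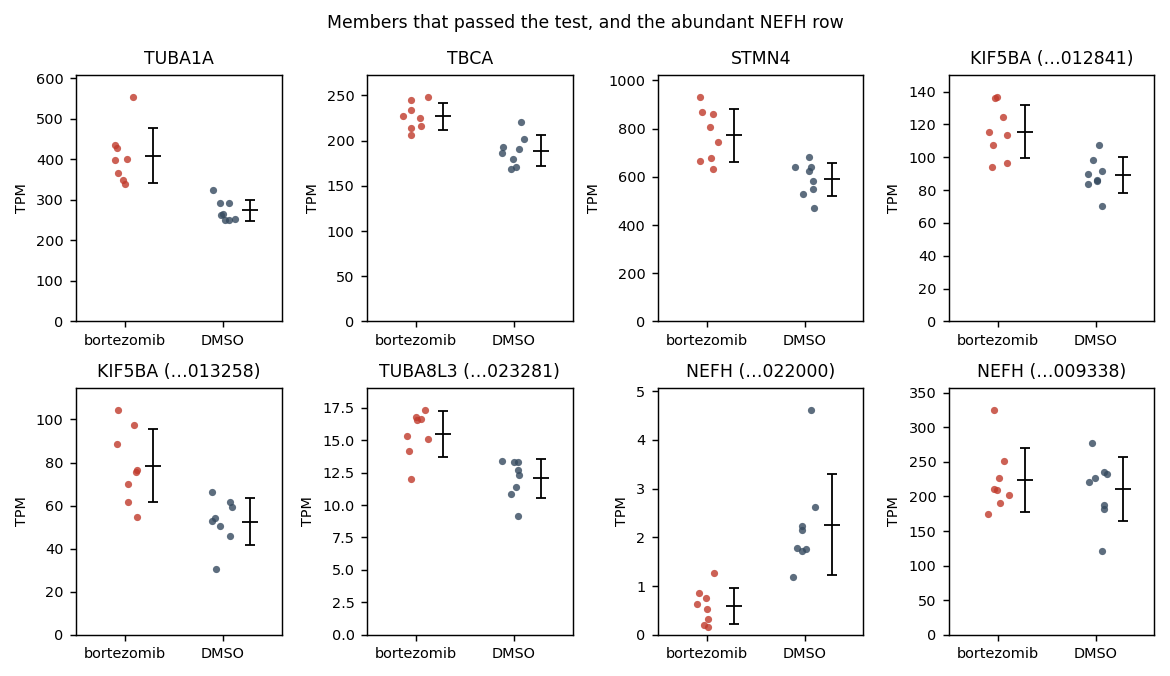
TPM per fish of the 7 members that passed the limma test and of the abundant NEFH row, 1 point per fish on a linear axis from 0, with mean and SD bars (n = 8 each), bortezomib left of DMSO. TUBA1A has no overlap between the groups, the scarce NEFH row overlaps by 1 fish on each side, and the abundant NEFH row covers about the same range in both groups.

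Of 47 kinesin rows in the set 40 were tested, and 2 passed (5.0%, against 4.86% of all tested rows). Positive log2 fold changes numbered 20 and negative ones 20 (median -0.006). At an unadjusted p under 0.05 stood 22.5% of the 40, against 21.2% of all tested rows, so the kinesins as a whole lay near those shares. Among the 23 for cargo transport in axons and dendrites, 2 rose, none fell and the median log2 fold change was 0.09. It was positive in 17 of the 23 (73.9%), against 56.6% of all tested rows. Both rows that rose are named KIF5BA, a heavy chain of conventional kinesin. Row Nfu_g_1_012841 stood at 94.1, 114 and 137 TPM in bortezomib fish, against 70.2, 87.9 and 107 TPM in DMSO fish (log2 fold change 0.37 ± 0.09, limma adjusted p 0.032). Row Nfu_g_1_013258 stood at 54.9, 76.0 and 104 TPM in bortezomib fish, against 30.4, 53.6 and 66.5 TPM in DMSO fish (log2 fold change 0.57 ± 0.15, limma adjusted p 0.0409). In each row all 8 bortezomib fish were above the DMSO median and 6 were above the highest DMSO fish. The rows follow each other in the table and may be parts of 1 gene, so they do not count as separate evidence. Both calls lie close to the threshold. With single fish left out, adjusted p reached 0.0619 for Nfu_g_1_012841, which was lost without bortezomib replicate 2, 4, 5 or 6 or DMSO replicate 4, 7 or 8. It reached 0.0808 for Nfu_g_1_013258, lost without bortezomib replicates 1 to 6 or DMSO replicate 1, 4, 5 or 7.

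The other transport kinesins did not pass. KIF3A, a motor subunit of kinesin-2, stood at 82.8, 120 and 132 TPM in bortezomib fish, against 54.3, 93.1 and 110 TPM in DMSO fish (log2 fold change 0.41 ± 0.15, limma adjusted p 0.122). Its partner KIF3CB had a log2 fold change of 0.33 ± 0.12 (limma adjusted p 0.119), and the other partner KIF3B had -0.11. KIF5C, a further heavy chain of conventional kinesin, stood at 53.3, 69.3 and 83.05 TPM in bortezomib fish and 43.7, 57.9 and 66.1 TPM in DMSO fish (log2 fold change 0.28 ± 0.10, limma adjusted p 0.126). Of its 8 bortezomib fish 5 were above the highest DMSO fish. The other KIF5C row, KIF5C (1 OF 2), averaged 46.6 TPM in bortezomib fish and 46.9 TPM in DMSO fish (log2 fold change 0.003 ± 0.14). KIF1B row Nfu_g_1_010289, a carrier of synaptic vesicle precursors and mitochondria, ran widely, at 45.1, 95.9 and 148 TPM in bortezomib fish and 43.3, 72.4 and 84.8 TPM in DMSO fish. Over all fish the log2 fold change of this row was 0.41 ± 0.19 (limma adjusted p 0.216). With single fish left out, its limma adjusted p ran from 0.031 to 0.374. It was 0.031 without bortezomib replicate 8, which held its lowest bortezomib value (log2 fold change 0.56). The adjacent KIF1B row Nfu_g_1_010350 averaged 3.25 TPM in bortezomib fish and 3.14 TPM in DMSO fish (log2 fold change 0.02 ± 0.11, limma adjusted p 0.924). The most abundant kinesins, KIF5AA and KIF1A (1 OF 2), had medians of 195 and 170 TPM in bortezomib fish and 192 and 163 TPM in DMSO fish, with log2 fold changes of 0.06 and 0.09. KIF5AA is named for KIF5A, the neuron-specific heavy chain of conventional kinesin in mammals.

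Of the 9 tested kinesins of the spindle, chromosomes and cytokinesis, none passed the limma test, 2 had an unadjusted p under 0.05, and 8 had a negative log2 fold change (median -0.11). Of all tested rows 56.6% were positive, with 14.2% higher and 6.94% lower at an unadjusted p under 0.05. All of the 9 but KIF22 averaged under 10 TPM. At that level 7 of 30 members of any family were positive, a count that depended on single fish. KIF22, a motor that binds chromosome arms, stood at 23.8, 27.2 and 29.6 TPM in bortezomib fish and 24.8, 31.4 and 35.3 TPM in DMSO fish (log2 fold change -0.19 ± 0.08, limma adjusted p 0.149). No bortezomib fish reached the DMSO median. KIF20A, which acts in cytokinesis, averaged 1.27 ± 0.291 TPM in bortezomib fish and 1.84 ± 0.635 TPM in DMSO fish (log2 fold change -0.30 ± 0.14, limma adjusted p 0.206). The remaining spindle motors, among them KIF11, KIF4A and KIF18A, lay at medians of 5.62 TPM or less in both groups. Markers of dividing cells summed to 171 to 232 TPM in bortezomib fish and 178 to 245 TPM in DMSO fish, and none of their 15 rows passed (0 higher and 1 lower at an unadjusted p under 0.05). Of these 15 rows 12 had a negative log2 fold change (median -0.08).

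Kinesins of cilia and hedgehog signalling (4 tested) and the remaining kinesins (4 tested) gave no limma call, with 0 and 1 rows at an unadjusted p under 0.05. KIF26B (1 OF 2), the most abundant of the remaining kinesins, had medians of 10.9 TPM in bortezomib fish and 10.45 TPM in DMSO fish. KIF19, which trims ciliary microtubules, had medians of 9.46 TPM in bortezomib fish and 9.05 TPM in DMSO fish (log2 fold change -0.05 ± 0.14). KIF6 stood at 1.19, 1.87 and 2.53 TPM in bortezomib fish and 0.780, 1.02 and 3.61 TPM in DMSO fish, and passed the TPM minimum in 8 bortezomib fish and 4 DMSO fish. KIF26AA row Nfu_g_1_018963, of a family that binds microtubules without moving along them, stood at 1.95, 3.80 and 4.83 TPM in bortezomib fish and 3.32, 5.28 and 6.96 TPM in DMSO fish (log2 fold change -0.36 ± 0.14, limma adjusted p 0.144). No bortezomib fish reached the DMSO median of that row.

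Partners of the kinesins and motors outside the set gave a few calls, all higher in bortezomib fish. Over all tested rows 3.61% were higher and 1.25% lower, with a median log2 fold change of 0.03. Of 19 rows for kinesin light chains, adaptors and KIFC motors 1 passed, KIFAP3B, the adaptor of kinesin-2. It averaged 75.3 ± 4.77 TPM in bortezomib fish and 62.3 ± 4.57 TPM in DMSO fish (SD, n = 8 each; log2 fold change 0.27 ± 0.06, limma adjusted p 0.0121). Of 33 rows for cytoplasmic dynein, the motor of the return path, and its activator dynactin, 5 were higher and none lower, with a median log2 fold change of 0.07. DYNC1LI2, a light intermediate chain that links dynein to cargo, averaged 32.9 ± 4.27 TPM in bortezomib fish and 19.3 ± 4.06 TPM in DMSO fish. All 8 of its bortezomib values lay above all 8 DMSO values, as in 1.08% of all tested rows. Its log2 fold change was 0.76 ± 0.13 (limma adjusted p 0.00289). The other 4 were DCTN3, ACTR10 and 2 rows of DYNLT3.

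Along the microtubule itself, the end-binding and severing proteins gave 1 call in 27 rows, where 4.86% of all tested rows were called. That was MAPRE2, an end-binding protein, which averaged 131 ± 6.85 TPM in bortezomib fish and 106 ± 13.4 TPM in DMSO fish (SD, n = 8 each; log2 fold change 0.30 ± 0.07, limma adjusted p 0.0264). Of 32 rows for microtubule-associated proteins none passed, with 7 higher and 0 lower at an unadjusted p under 0.05, a level at which 14.2% of all tested rows were higher and 6.94% lower. Of 21 tubulin-modifying enzymes none passed, with 4 higher and 0 lower at that level. The median log2 fold changes were -0.08 for the end-binding and severing proteins, 0.11 for the microtubule-associated proteins and 0.12 for the modifying enzymes, against 0.03 over all tested rows.

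Of 7 tested neurofilament and INA rows 1 passed (14.3%, against 4.86% of all tested rows), and it was lower in bortezomib fish. The table has 2 rows named NEFH, the heavy subunit, and the row that fell was the scarce one. Row Nfu_g_1_022000 stood at 0.164, 0.580 and 1.27 TPM in bortezomib fish, against 1.19, 1.97 and 4.61 TPM in DMSO fish. The highest bortezomib fish lay just above the lowest DMSO fish, and otherwise the groups were apart. The means were 0.593 ± 0.374 TPM in bortezomib fish and 2.26 ± 1.04 TPM in DMSO fish (SD, n = 8 each), a ratio of 0.262. The log2 fold change was -1.01 ± 0.18 (limma adjusted p 0.00355). With 1 bortezomib fish and 8 DMSO fish at 1 TPM or more, it passed the minimum only through the group in which it was high. The row was also named with its fall known, so its p-value gives that fall no independent support.

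The depth behind the scarce NEFH row can be read from its values. In all 16 fish each value was a whole multiple of that fish's own step, which varied between fish, within 0.05 of a whole number and with a largest distance of 0.029. If a step is 1 read, the row rests on 3 to 25 reads per bortezomib fish (median 10.5, 86 in all) and 19 to 85 reads per DMSO fish (median 40.5, 341 in all). The relative depth of the libraries ran from 0.875 to 1.11 in bortezomib fish and 0.863 to 1.39 in DMSO fish. These read counts follow from the steps and not from deposited counts.

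The abundant NEFH row, Nfu_g_1_009338, stood at 175, 210 and 325 TPM in bortezomib fish and 122, 223 and 277 TPM in DMSO fish. The groups covered each other, with means of 224 ± 46.8 TPM in bortezomib fish and 210 ± 46.4 TPM in DMSO fish (SD, n = 8 each). The log2 fold change was 0.10 ± 0.15 (limma adjusted p 0.727). Nearly all transcripts named NEFH therefore came from a row that did not pass, and the fall of NEFH is that of the scarce row.

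The remaining filament genes did not pass. INAB, an alpha-internexin, stood at 107, 132 and 155 TPM in bortezomib fish, against 78.4, 98.0 and 133 TPM in DMSO fish (log2 fold change 0.38 ± 0.11). All 8 bortezomib fish were above the DMSO median, and its limma adjusted p of 0.0597 was the smallest among members not called. NEFMA row Nfu_g_1_006718, a medium subunit, stood at 41.2, 61.8 and 87.0 TPM in bortezomib fish and 26.4, 45.7 and 56.8 TPM in DMSO fish (log2 fold change 0.51 ± 0.20, limma adjusted p 0.151). The scarcer NEFMA row Nfu_g_1_021266 had medians of 5.52 TPM in bortezomib fish and 6.02 TPM in DMSO fish. The light subunits NEFLA and NEFLB had medians of 77.6 and 26.1 TPM in bortezomib fish and 85.3 and 31.0 TPM in DMSO fish. Their log2 fold changes, taken from means of log values, were 0.03 ± 0.19 and 0.36 ± 0.35, so medians and means pointed in different directions. Summed neurofilament and INA transcripts came to 439, 520 and 754 TPM in bortezomib fish and 311, 496 and 589 TPM in DMSO fish, with wide overlap. Of 12 rows for other intermediate filaments none passed, with 1 higher and 1 lower at an unadjusted p under 0.05.

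**Figure D3:**
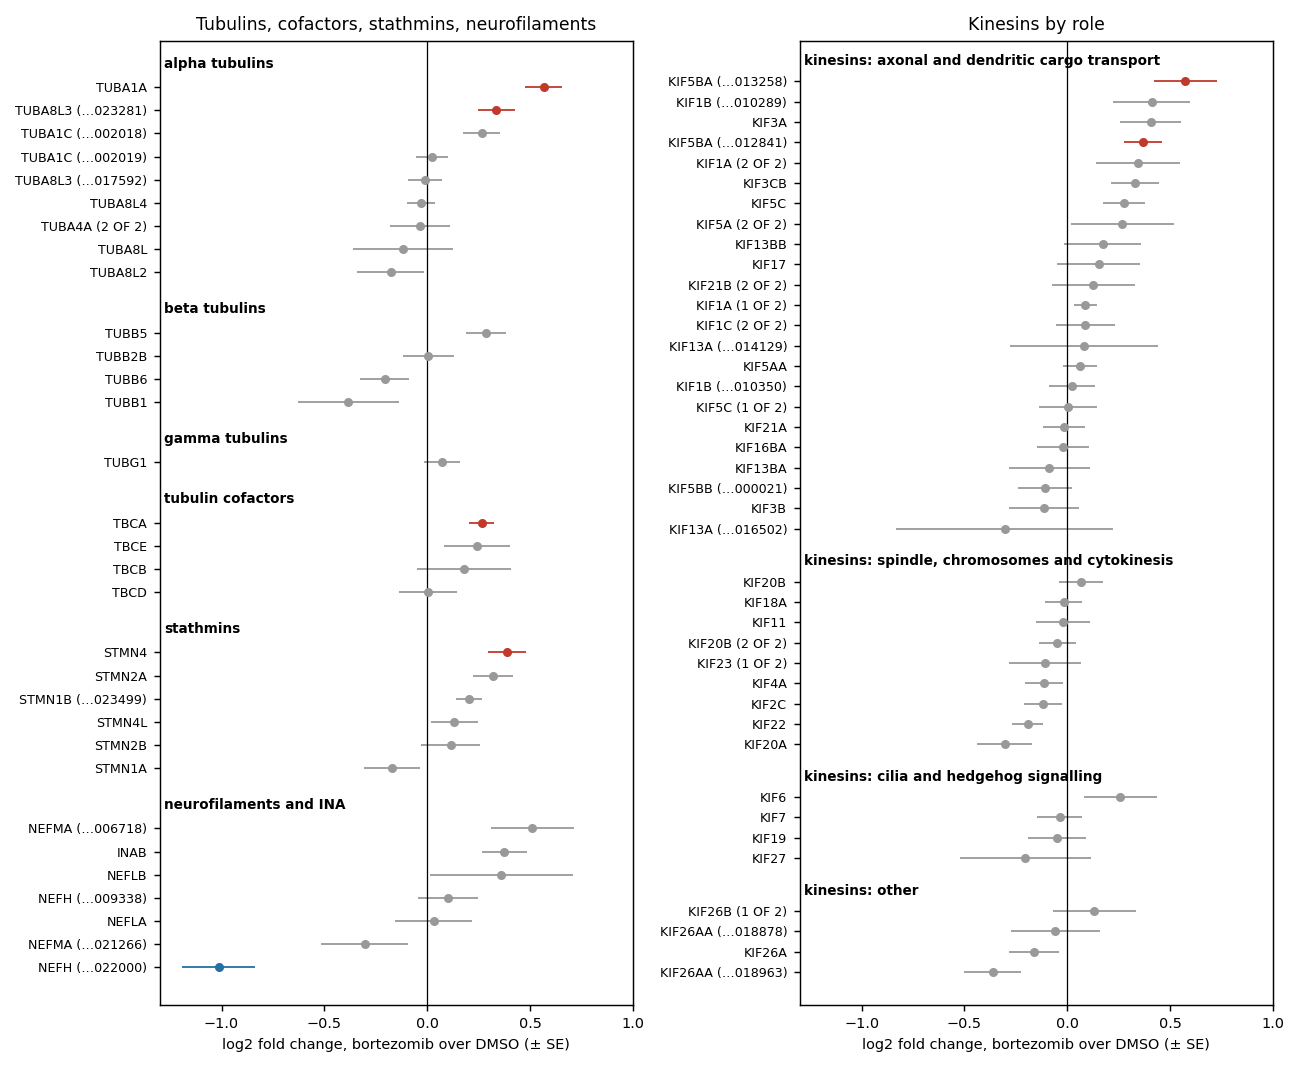
Log2 fold change (bortezomib over DMSO, horizontal axis) with its standard error for the 71 tested members, grouped by family and role. Red points were higher and the blue point lower in bortezomib fish at a limma adjusted p under 0.05, and grey points did not pass. Right of 0 lie 17 of 23 transport kinesins, and left of 0 lie 8 of 9 spindle kinesins. Of all tested rows, not drawn, 56.6% were positive.

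Teleost genomes carry duplicated genes, and 16 genes of the set had several tested rows, giving 20 pairs of rows. Whether the rows of a pair changed differently was tested on the difference of their log2(TPM + 1) per fish, by a two-sided exact permutation test over all 12870 splits of the fish, adjusted over the 20 pairs. Of these, 3 pairs differed, and 11 had an unadjusted p under 0.05. The smallest p the test can give is 0.0001554. The TUBA8L3 rows differed by 0.35 on the log2 scale (adjusted exact p 0.00622): the scarce row averaged 15.5 TPM in bortezomib fish and 12.1 TPM in DMSO fish, and the abundant row 86.4 TPM in bortezomib fish and 86.8 TPM in DMSO fish. This pair differed under every alternative run on it.

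The TUBA1C rows differed by 0.24 on the log2 scale (adjusted exact p 0.0425), a call that adjusted p-values of up to 0.0881 took away when single fish were left out. It was lost without bortezomib replicate 1, 2, 3, 4 or 5, without DMSO replicate 1, 4, 5, 6, 7 or 8, and with the 4 pituitary-rich brains left out (0.0693). The NEFH rows differed by 1.12 (adjusted exact p 0.00932), but the scarce row was picked for its fall, so the difference is a description. That pair was among the 20 over which the p-values were adjusted, and the adjustment was not repeated without it. The TUBA1C call, close to the threshold, therefore leans on a pair picked for its change. The NEFMA rows, 0.82 apart, and STMN1B against STMN1A, 0.37 apart, each had an adjusted exact p of 0.0715 and did not pass. KIF5BA against the scarce KIF5BB gave differences of 0.48 and 0.68, with adjusted exact p-values of 0.0715 and 0.0676. Rows that share a name can be true duplicates, parts of 1 gene, or near-identical copies whose reads were split, and the files do not settle which. Without bortezomib replicate 8 the count of pairs that differed was 10, and it was 6 without bortezomib replicate 7, DMSO replicate 2 or DMSO replicate 3.

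**Figure D4:**
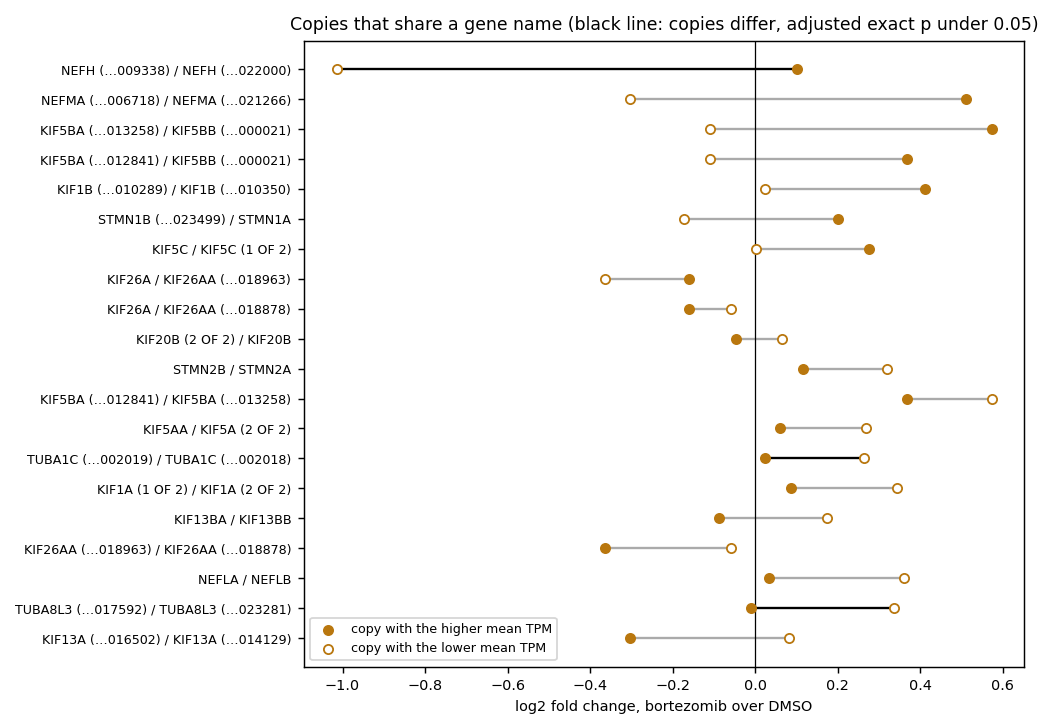
Log2 fold change (bortezomib over DMSO, horizontal axis) of both rows of each of 20 pairs that share a gene name; filled points are the row with the higher mean TPM and open points the other. Black lines join the 3 pairs that differed at an adjusted exact p under 0.05 (NEFH, TUBA1C and TUBA8L3), grey lines the pairs that did not pass.

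Members sorted by level showed a split that the families only partly share. It was noticed in the values and is given as a description. Of 27 members averaging at least 50 TPM, 23 had a positive log2 fold change (85.2%, median 0.20), against 62.5% of the 2952 rows at that level (median 0.06). In this range 5 members were higher and none lower (18.5%, TUBA1A among them), and of all rows at that level 291 were higher and 72 lower (12.3% together). Of 14 members between 10 and 50 TPM, 78.6% were positive, against 55.9% of all rows there. Of 30 members averaging under 10 TPM, 7 were positive (23.3%, median -0.08), against 55.2% of 7586 rows (median 0.03).

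The abundant end held all 6 stathmins (5 positive) and 8 transport kinesins (7 positive), with TUBA1A, TUBB5 and INAB. The scarce end also held 8 transport kinesins, which gave 5 of its 7 positive rows. Of its 8 spindle kinesins 1 was positive, and none of its 5 tubulin rows was. The split depended on scaling and on single fish. At 50 TPM and more, positives numbered 20 under median-of-ratios scaling, 19 under upper-quartile scaling and 17 under quantile normalization. Under 10 TPM they numbered 6 under each of these and 13 without bortezomib replicate 8. Without the 4 fish with pituitary transcripts they numbered 21 at the abundant end and 10 at the scarce end.

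**Figure D5:**
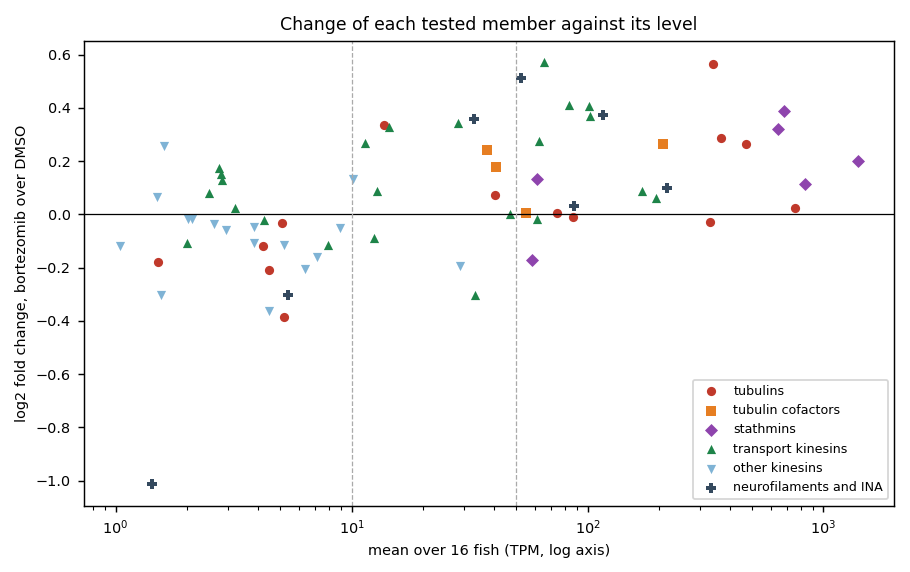
Log2 fold change (bortezomib over DMSO, vertical axis) of each of the 71 tested members against its mean over 16 fish (TPM, log axis), coloured by family; dashed lines mark 10 and 50 TPM. Right of 50 TPM 23 of 27 members lie above 0, and left of 10 TPM 7 of 30 do.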

How the data were processed

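RNA of 16 killifish brains was sequenced, 8 from bortezomib fish and 8 from DMSO fish, grouped by GEO's labels. The authors deposited 1 table of TPM values, whose columns each sum to 1000000. STAR and bcl2fastq 2.20.0.422 are named in the submitters' processing notes, and the sources used here give no read counter, genome build or annotation. TPM values hold no deposited counts, so no counting intervals were formed; reads behind the scarce NEFH row and relative depths were inferred from the steps in low values. No columns were identical (correlations between fish 0.928 to 0.981), and p-values set the group difference against the variation between individual fish.

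The test was limma 3.58.1 (R 4.3.3) with its trend option, run without rescaling or covariates on log2(TPM + 1) of the 18529 rows that reached 1 TPM in 8 or more fish. Benjamini-Hochberg adjustment of its two-sided p-values ran over all tested rows. Errors are SD over fish or SE of log2 fold changes. The fit was tested on simulated data. Pairs of rows were compared by exact permutation tests. Alternatives were other pseudocounts, filters and scalings, a replicate block, robust variances, sample weights and leaving out each fish; leaving out 4 fish with pituitary transcripts was chosen after seeing the data.

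Members and lists were chosen with earlier results of these data known. Named members were those called, TUBA1A, both NEFH rows, the most abundant row of each family and kinesin role, the row with the smallest p where none was called, both rows of a pair that differed, the called row with the smallest p of each further list, and, added after their values were seen, members at an unadjusted p under 0.05 and others that illustrate a family. Gene symbols are the file's own. The RefSeq gene table of the species matched 0 of its identifiers, so coordinates and sequences are not used here. Lists also covered markers of newborn neurons, radial glia, ciliated cells, microglia, vessels, erythrocytes and retina. Of these, radial glia and astrocytes had 2 of 12 rows lower (SOX9A and GLUL (2 OF 2)), and the others had no call. Markers of newborn neurons had 2 positive and 8 negative log2 fold changes (median -0.12). None of them had an unadjusted p under 0.05. Tables and plots were made in Python 3.11.15 (numpy 2.4.6, matplotlib 3.10.9, pandas 2.3.3).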

Additional observations from a re-analysis of the deposited data

Results flagged for a closer look

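A single fish stood far from the rest of its group, by Dixon's 95% criterion, in 5 of 56 groups of 8 values looked at among the named members; chance gives about 1 in 20. TUBA1A reached 553.4 TPM in bortezomib replicate 3, against 434.8 TPM in the next bortezomib fish; without that fish TUBA1A still passed. NEFH row Nfu_g_1_022000 reached 4.608 TPM in DMSO replicate 4, against 2.631 TPM in the next DMSO fish, and passed without it. KIF26AA row Nfu_g_1_018963 was lowest, at 1.954 TPM, in bortezomib replicate 8, with the next bortezomib fish at 3.625 TPM. KIF6 reached 3.613 TPM in DMSO replicate 5, against 1.755 TPM in the next DMSO fish. KIF3CB reached 17.29 TPM in DMSO replicate 6, against 13.71 TPM in the next DMSO fish. KIF26AA, KIF6 and KIF3CB did not pass with or without the fish concerned.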

How the results depend on the processing

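TUBA1A was called in all 27 alternatives (log2 fold change 0.49 to 0.61) and the scarce NEFH row in the 26 that tested it (-1.87 to -0.90); both were named for these changes, and the NEFH row passed the TPM minimum through the DMSO fish, so this is no independent sign of stability. The count of members higher was 6, and it was 3 under upper-quartile scaling and under quantile normalization, 10 with sample weights, 1 without the 4 fish with pituitary transcripts, and 2 to 7 with single fish left out; without bortezomib replicate 6 it was 2, and without bortezomib replicate 4 or 5 or DMSO replicate 4 or 7 it was 3. The count of members lower was 1 in each, except 0 at a minimum of 5 TPM, where the scarce NEFH row was not tested. Pairs that differed numbered 3, and 2 to 10 with single fish left out. The split of all calls was 669 higher and 232 lower, against 534 and 421 under median-of-ratios scaling, 502 and 455 under upper-quartile scaling, and 549 and 563 under quantile normalization; the cause was not tested.

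Small changes that were never called turned sign in some settings. TUBA1C row Nfu_g_1_002019 gave -0.0101 under median-of-ratios scaling, -0.0198 under upper-quartile scaling, -0.00336 without the fish with pituitary transcripts, and -0.0298 to 0.0513 with single fish left out. The abundant NEFH row gave -0.00164 under quantile normalization and -0.006 to 0.1623 with single fish left out. KIF5AA gave -0.0377 under quantile normalization. KIF19 gave 0.0407 with sample weights and -0.1021 to 0.0492 with single fish left out. TUBA8L3 row Nfu_g_1_017592 gave -0.0482 to 0.0318 with single fish left out. Causes were not tested.

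With the replicate number as a block, 6 members were higher and 1 lower, 4 pairs of rows differed (sign-flip test), and 491 of all rows were called. Under the block TUBA8L3 row Nfu_g_1_023281 was lost (limma adjusted p 0.093) and KIF5C gained (0.0368), and among pairs TUBA1C was lost (adjusted exact p 0.0521) while KIF13A and KIF5BA row Nfu_g_1_013258 against KIF5BB were gained. The numbers were not taken as a pairing: same-numbered fish correlated at -0.24 to 0.415, over 0.1 in 3 of 8 pairs, and 0 of 8 fish correlated best with their own number. In KIF13A row Nfu_g_1_016502, bortezomib replicates 1 to 4 ran at 39.41 to 68.66 TPM and replicates 5 to 8 at 8.08 to 13.13 TPM. DMSO replicates 1 to 4 ran at 36.9 to 86.24 TPM and 5 to 8 at 10.99 to 20.96 TPM. KIF13A row Nfu_g_1_014129 split likewise. It ran at 3.46 to 5.54 and 0.62 to 1.24 TPM in bortezomib fish. In DMSO fish it ran at 2.29 to 5.03 and 0.74 to 1.31 TPM. The cause of this split was not tested. Depth limits the rows near 1 TPM.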
